A study of Homo sapiens with 18 samples.

Results

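The genes described here encode the ephrins and their Eph receptors, the semaphorins with their plexin and neuropilin receptors, the Slits and their Robo receptors, the netrins and their Unc5 receptors, and the FLRT proteins. They were taken by a rule on gene symbols that uses no measured value, but the rule was set with earlier results of these data known. In the deposited RPKM table (read numbers scaled to transcript length and to the mapped reads of the library), 42 of the 10975 genes carry such a symbol. The annotation of the same genome build holds 71 protein-coding genes with such symbols, so 29 are not listed. Listed members are 8 of 14 Eph receptors, 7 of 8 ephrins, 13 of 20 semaphorins, 6 of 11 plexins and neuropilins, 2 of 7 Slits and Robos, 4 of 8 netrins and Unc5 receptors and 2 of 3 FLRTs. The table lists only genes with an RPKM of at least 4 in at least 1 library, and 6 of the 42 members reached that level only at 48 h, so a member that was low at the start could be listed only if it rose.

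H1 cells, an established line of human embryonic stem cells grown in Essential 8 medium, were profiled by RNA-Seq before (0 h) and 12, 24 and 48 h after the addition of 1 nM of the recombinant WNT ligand Wnt3a, in a first WT series with 1 library at each time. A second WT series, WT Rep. 2, and the SP5 mutant lines dZF1 and dZF2 were sequenced at the same times, again with 1 library for each line and time. SP5 is a zinc-finger transcription factor and a target of WNT/β-catenin signaling, and each mutant line is 1 single-cell clone of H1 from which CRISPR-Cas9 removed the part of SP5 that encodes the zinc fingers. SP5 ChIP-Seq peak lists carry the labels of untreated cells and of cells given 1 nM Wnt3a for 24 h. All comparisons below have 1 library on at least 1 side, so no p-value is given for any difference: an exact permutation test of 1 WT series against 2 clones cannot give a p below 0.333.

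Guidance molecules were named for their part in steering growing axons, and the same ligands and receptors act on migrating cells, blood vessels and the sheets of the early embryo. Ephrins are tied to the cell surface, by a lipid anchor in the EFNA group and by a transmembrane segment in the EFNB group, and signal on contact to the Eph receptor tyrosine kinases of a neighbouring cell, which as a rule pushes the cells apart and keeps tissue boundaries sharp. Semaphorins act through plexins, with neuropilins as co-receptors for the secreted class; Slits act through Robos and netrins through DCC and the Unc5 receptors. FLRT proteins are leucine-rich repeat proteins of the membrane that bind Unc5 receptors and latrophilins and, in the early embryo, serve cell adhesion.

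The labelled cell type was checked by its markers. All 8 pluripotency markers were listed, and their summed RPKM went from 2809 at 0 h to 1999 at 48 h. The sum of 4 mesendoderm markers was 0.7, 116.5, 459.9 and 253.5 at the successive times, and that of 5 definitive endoderm markers went from 4.0 to 285.5. Of other cell types, 3 of 5 mesoderm markers were listed, with a summed RPKM of 26.5 at 0 h and 34.7 at 48 h, and 0 of 4 neural markers. Of the neuronal markers 2 of 5 were listed (TUBB3 and STMN2, together 185.2 at 0 h and 229.1 at 48 h). Also listed were 1 of 3 endothelial markers (TEK) and 1 of 3 neural crest markers (FOXD3). In these bulk samples fewer cells of a type and less RNA per cell cannot be told apart, and which cells carried the guidance transcripts was not tested. The table gives no read counts, so depth is unknown, and the RPKM of all listed genes summed to between 386320 and 393761 in the 4 libraries.

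Relative to 48 h, WT Rep. 2 had the lowest SP5 level of all series at 12 and 24 h, and the lowest MIXL1, EOMES and GSC levels at 24 h. SP5 itself, as a share of the level of the same series at 48 h, was at 36.7% at 12 h and 66.7% at 24 h in the first WT cells, but at 2% and 9% in WT Rep. 2. In dZF1 the share was 9.06% at 12 h and 35.4% at 24 h, and in dZF2 23.8% and 28.7%. At 24 h the mesendoderm genes MIXL1, EOMES and GSC stood at 0.08, 0.05 and 0.10 of their highest level in WT Rep. 2, and both clones were above that level for all 3, with values from 0.71 to 3.27. As shares of their own 48 h level, these genes were at 354.8%, 78.2% and 212.5% in the first WT series at 24 h. They were at 58.2%, 37.8% and 35.4% in dZF1, nearer to WT Rep. 2 than to the first WT series, and at 218%, 57.9% and 108% in dZF2. The part of the SP5 deletion in the clone values was not tested. T, the other mesendoderm marker, was at 0.34 in WT Rep. 2, whereas the clones were at 0.42 (dZF1) and 6.16 (dZF2), and dZF1 was then at a smaller share of its own 48 h level (21.4%) than WT Rep. 2 (34%). Whether the treatment or the time labels of WT Rep. 2 differ from those of the first WT series was not tested, and each ratio of a clone to WT Rep. 2 at 12 or 24 h carries this limit. The SP5 transcript was still counted in the clones, at 2.54 times (dZF1) and 2.61 times (dZF2) the WT Rep. 2 level at 48 h, and since the value covers the whole gene it does not test the deletion.

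Counted as at least 2-fold when the log2 of RPKM plus 1 exceeded its 0 h value by 1 or more, 15 of the 42 members (35.7%) were higher at 48 h in the first WT series, against 4.87% of all listed genes. They were the ephrins EFNA2, EFNA5 and EFNB1, the receptors EPHA2, EPHA4 and EPHB3, the semaphorins SEMA4G, SEMA5A and SEMA6D, the plexin PLXNA2, SLIT2, the netrins NTN1 and NTN4, and FLRT2 and FLRT3. The count was 7 with a pseudocount of 5, and 7 when genes whose highest RPKM was under 10 were left out. No member was at least 2-fold lower at 48 h, against 2.95% of all genes. At 24 h the count was 9 higher, against 2.62% of all genes, and none lower, against 1.36%. With the smallest change that rounding to 1 decimal allows, 6 were higher at 24 h. EFNA5 and EPHA4 lay on the threshold there, with a log2 change of 1.0, and SEMA4G near it, with 1.02. At 12 h the count was 1 higher (FLRT2), against 1.22%, and none lower, against 0.738%. The median log2 change of the members was -0.088, 0.0062 and 0.17 at the 3 times, and that of all listed genes was -0.011, -0.0125 and -0.0027, so the typical member moved little and a subset rose. Within 1.5-fold of the 0 h level at 48 h were 24 of the 42, and 8825 of the 10975 listed genes.

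The members that rose were mostly those that started low. Among the 13 members with an RPKM under 4 at 0 h, 12 were at least 2-fold higher at 48 h, and among all 899 listed genes under that level the share was 35.6%; such genes are listed because they came to exceed RPKM 4 later. Among the 29 members with an RPKM of at least 4 at 0 h, which needed no rise to be listed, 3 were at least 2-fold higher (EFNA2, EFNB1 and EPHA2), or 10.3%, against 2.12% of 10076 genes. None of those 29 was at least 2-fold lower, against 3.04%.

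**Figure D1:**
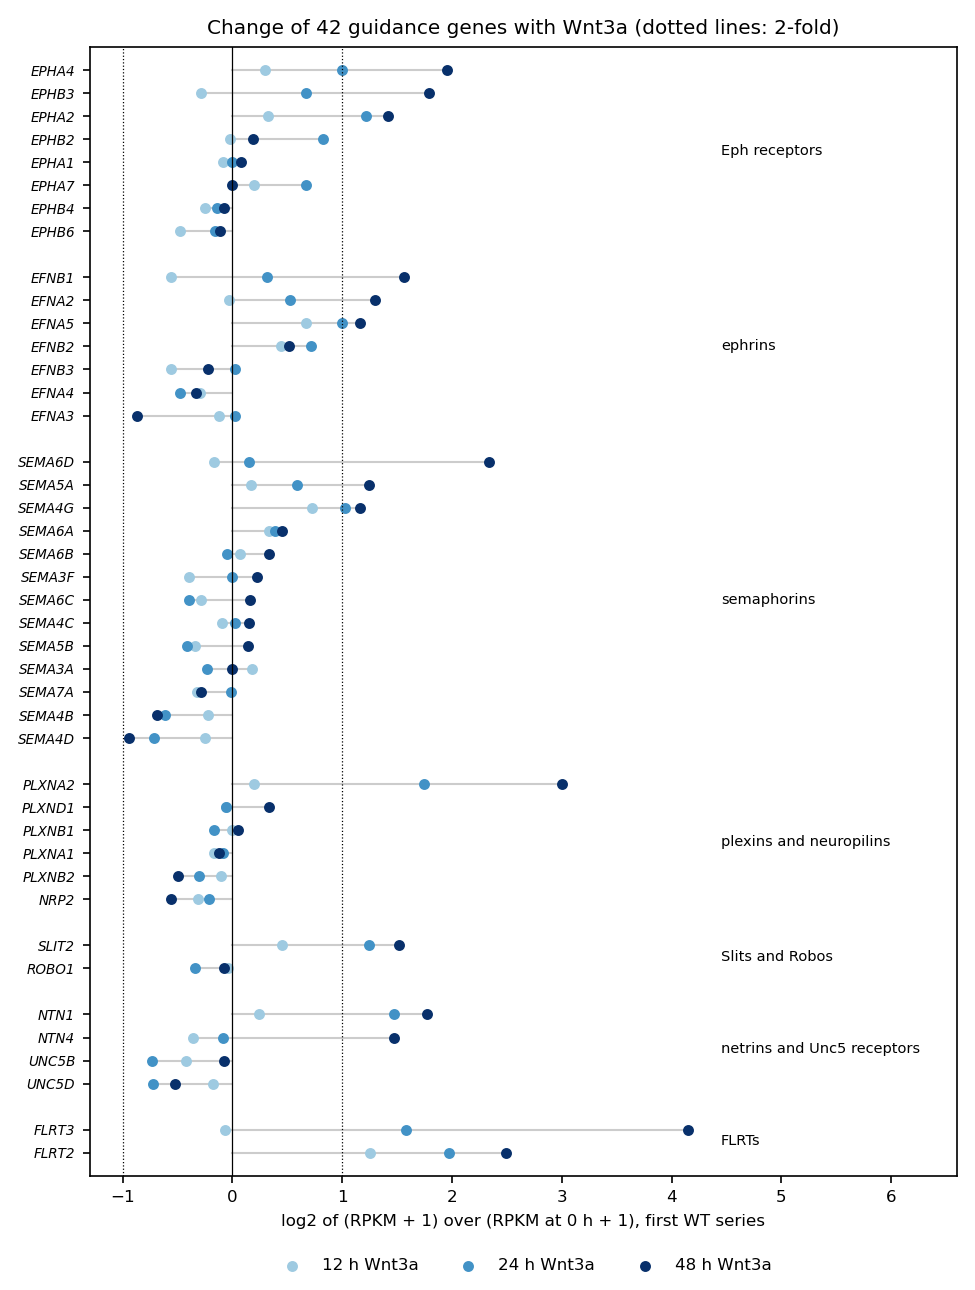
Change of each of the 42 guidance genes in the first WT series: the x axis is log2 of RPKM plus 1 over RPKM plus 1 at 0 h, each row is a gene, and the points are the libraries at 12, 24 and 48 h (1 library each, no error). The 15 genes whose 48 h point lies beyond the right dotted line are spread over all 7 families, and no point lies beyond the left dotted line.

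Among the lipid-anchored ephrins, EFNA5 had RPKM of 3.7, 6.5, 8.4 and 9.5 (here and below at 0, 12, 24 and 48 h), a log2 change of 1.16 between the ends. Its course rose at every time, with most of the gain reached by 24 h. EFNA2 was flat at first and then rose, with RPKM of 4.2, 4.1, 6.5 and 11.8 and a log2 change of 1.30. EFNA4, the ephrin with the highest RPKM of all, went the other way, with 29.0, 23.5, 20.5 and 22.9 RPKM, a log2 change of -0.33. EFNA3 stayed at 10.9, 9.9 and 11.1 until 24 h and ended at 5.5 RPKM, a log2 change of -0.87. EFNA3 and EFNA4 are neighbours on chromosome 1 with an annotated read-through transcript, so reads could be split between them. EFNA2 and EFNA5 thus passed the 2-fold threshold, and EFNA3 and EFNA4 did not.

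The transmembrane ephrin EFNB1 dipped and then rose, with RPKM of 6.8, 4.3, 8.7 and 22.1, a log2 change of 1.57 and the largest gain of RPKM among the ephrins. EFNB2, known as the ephrin of arteries, was highest at 24 h, with RPKM of 10.2, 14.2, 17.4 and 15.0 and a log2 change of 0.51 at 48 h. EFNB3 stayed between 10 and 15.5 RPKM. EFNB1 was thus the lowest of the 3 EFNB genes at 0 h and the highest at 48 h on the RPKM scale.

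Among the receptors, EPHA2 was already well expressed at 0 h and rose most in RPKM, through 17.7, 22.4, 42.4 and 49.0, a log2 change of 1.42. EPHA4, a receptor that binds ephrins of both groups, rose through 2.9, 3.8, 6.8 and 14.1 RPKM, a log2 change of 1.95. EPHB3, a receptor of EFNB ligands, went through 1.2, 0.8, 2.5 and 6.6 RPKM, a log2 change of 1.79. EPHA2 had gained most of its rise by 24 h, whereas EPHA4 and EPHB3 were at less than 50% of their 48 h level then.

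The receptors with the highest RPKM stayed level. EPHB4 was at 57.3, 48, 51.8 and 54.4 RPKM (log2 change -0.074), and EPHA1 at 56.0, 52.8, 55.7 and 59.1 (log2 change 0.076). EPHB4 overlaps SLC12A9 and EPHA1 overlaps ZYX in the annotation, and whether reads were counted by strand is not given in the sources used here. EPHB2 and EPHA7, named after their values were seen, were highest at 24 h: EPHB2 had RPKM of 7.0, 6.9, 13.2 and 8.1, and EPHA7 of 4.4, 5.2, 7.6 and 4.4. By 48 h both were back within 1.5-fold of their 0 h level.

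Of the 13 semaphorins, 3 rose at least 2-fold. SEMA6D, a transmembrane ligand of plexin A receptors, was low until 24 h (0.8, 0.6 and 1.0 RPKM) and then reached 8.1, a log2 change of 2.34. SEMA5A, a transmembrane semaphorin with thrombospondin repeats, rose evenly through 1.4, 1.7, 2.6 and 4.7 RPKM, a log2 change of 1.25. SEMA4G rose early, through 1.9, 3.8, 4.9 and 5.5 RPKM, a log2 change of 1.16; it overlaps MRPL43. These were the 3 listed semaphorins with the lowest RPKM at 0 h, and all 3 stayed under RPKM 10.

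SEMA6A, another ligand of plexin A receptors, had the highest RPKM of all 42 members at 48 h, with 75.8, 96.0, 99.3 and 103.7 over the 4 times. Its log2 change of 0.45 is below the threshold, although its gain in RPKM (27.9) exceeds that of 13 of the 15 members that passed it. SEMA4C was level at 27.7, 25.9, 28.1 and 30.9 RPKM, and so was the secreted SEMA3A at 20.9, 23.7, 17.6 and 20.9. The lowest changes among the semaphorins belonged to other members of the SEMA4 class, named after their values were seen: SEMA4D, a ligand of plexin B1, went through 12.1, 10, 7.0 and 5.8 RPKM (log2 change -0.95), and SEMA4B through 17.4, 14.8, 11.0 and 10.4 (log2 change -0.69). Both were lower at each later time, and with a pseudocount of 0.1 SEMA4D passed the 2-fold threshold, with a log2 change of -1.05. The remaining semaphorins, SEMA3F, SEMA5B, SEMA6B, SEMA6C and SEMA7A, had log2 changes between -0.29 and 0.33 at 48 h.

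Among the receptors of semaphorins, PLXNA2 alone rose at least 2-fold. It had RPKM of 0.4, 0.6, 3.7 and 10.2, a log2 change of 3, the second largest of the 42. PLXNA1 (22.2, 19.6, 20.8 and 20.3 RPKM) and PLXNB1 (14.8, 14.8, 13.1 and 15.4) were level. PLXNB2 was lower at each later time, with 19.7, 18.2, 15.8 and 13.7 RPKM and a log2 change of -0.49. NRP2, the listed neuropilin, had 9.2, 7.2, 7.8 and 5.9 RPKM (log2 change -0.56), and PLXND1 had 9.1, 8.7, 8.7 and 11.7 (log2 change 0.33). At 0 h PLXNA2 was the lowest of these 6 genes, and at 48 h it was above NRP2 and below the 4 others.

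SLIT2, a secreted ligand, rose through 2.0, 3.1, 6.1 and 7.6 RPKM, a log2 change of 1.52. Its receptor ROBO1 was well expressed throughout, with 22.3, 21.7, 17.4 and 21.1 RPKM and a log2 change of -0.076. The ligand rose while the listed receptor stayed level.

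Both listed netrins rose. NTN1, a secreted ligand, rose through 1.2, 1.6, 5.1 and 6.5 RPKM, a log2 change of 1.77. NTN4, a basement membrane netrin, was at 0.8, 0.4 and 0.7 RPKM until 24 h and then reached 4.0, a log2 change of 1.47. The receptors dipped at 24 h: UNC5B was at 12.3, 8.9, 7.0 and 11.6 RPKM, and UNC5D at 17.2, 15.1, 10 and 11.7. At 48 h UNC5B was back near its 0 h level, with a log2 change of -0.078, and UNC5D was at -0.52.

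Both listed FLRT genes were among the 3 members with the highest log2 change. FLRT2 was the earliest member to rise, with 2.1, 6.4, 11.2 and 16.4 RPKM and log2 changes of 1.26, 1.98 and 2.49. FLRT3 rose later, with 1.2, 1.1, 5.6 and 38.0 RPKM and a final log2 change of 4.15, the highest of all members. FLRT3 lies on the reverse strand of chromosome 20 (chr20:14303631-14318260, GRCh37) inside the gene MACROD2, which runs on the other strand and is not itself listed.

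**Figure D2:**
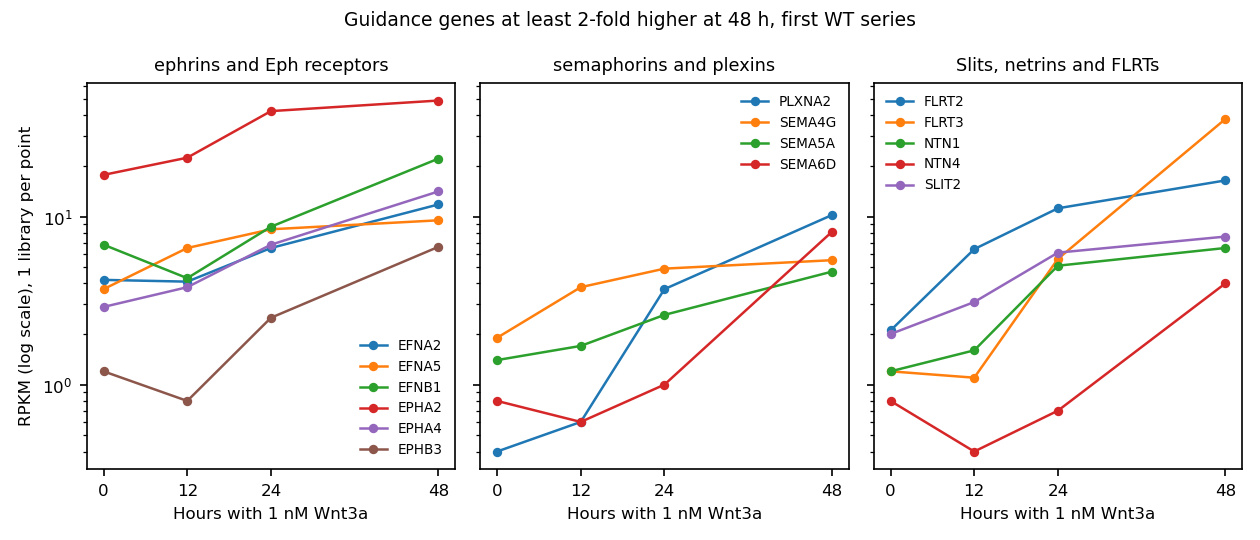
RPKM on a log axis against hours of Wnt3a for the 15 members at least 2-fold higher at 48 h in the first WT series, in 3 panels by family (1 library per point, no error). FLRT2, EFNA5 and SEMA4G climb from 12 h on, whereas SEMA6D and NTN4 stay under 1.1 RPKM until 24 h, and FLRT3 crosses all but EPHA2 by 48 h.

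A further 62 genes that act with these families, such as DCC, latrophilins, collapsin response mediators and adaptors of Eph signaling, were taken from a list, and 39 of them are in the table. At 48 h, 3 were at least 2-fold higher and 2 lower, against 4.87% and 2.95% of all listed genes, and 32 were within 1.5-fold. SLITRK2, a membrane protein with Slit-like leucine-rich repeats, went through 0.5, 1.4, 2.8 and 10.8 RPKM (log2 change 2.98). The phosphatase INPPL1, which binds EPHA2, went through 10.5, 10.2, 14.1 and 22.9 (log2 change 1.06), and RGMB, a neogenin ligand and BMP co-receptor, through 9.6, 16, 18.6 and 20.4 (log2 change 1.01). The 2 that were lower act inside the cell downstream of semaphorins: DPYSL3, a collapsin response mediator, went from 202.4 to 76.8 RPKM (log2 change -1.39), and RND1, a small GTPase that binds plexins, from 6.5 to 2.5 (log2 change -1.10). The ligands and receptors held 15 of 42 past the threshold and the other guidance genes 5 of 39, with no test of that difference. The groups are not alike in starting level. Under RPKM 4 at 0 h, where a gene is listed only if it rose later, were 13 of the 42 members but of the 39 only SLITRK2. At RPKM 4 or more at 0 h, 3 of 29 members passed, and of the other guidance genes INPPL1, RGMB, DPYSL3 and RND1 did.

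SP5 and the effectors of WNT signaling bind short motifs in DNA, and 5 promoters are shown for this reason: those of the 3 members with the largest log2 change (FLRT3, PLXNA2 and FLRT2), and those of SEMA6D and EPHA2, chosen as the members that rose and whose window holds CTTTGA. Sequences run from 250 bases before to 50 after the start of the gene in RefSeq (GRCh38.p14) on the gene's own strand. Capitals mark GGGCGG, the GC box, and CTTTGA, a form of the core of TCF/LEF sites, on either strand. Other forms of that core, such as CTTTGT, were neither marked nor counted. They are FLRT3 (chr20:14337563-14337862, reverse strand), PLXNA2 (chr1:208244335-208244634, reverse strand), FLRT2 (chr14:85529894-85530193, forward strand), SEMA6D (chr15:47183839-47184138, forward strand) and EPHA2 (chr1:16156020-16156319, reverse strand).
FLRT3: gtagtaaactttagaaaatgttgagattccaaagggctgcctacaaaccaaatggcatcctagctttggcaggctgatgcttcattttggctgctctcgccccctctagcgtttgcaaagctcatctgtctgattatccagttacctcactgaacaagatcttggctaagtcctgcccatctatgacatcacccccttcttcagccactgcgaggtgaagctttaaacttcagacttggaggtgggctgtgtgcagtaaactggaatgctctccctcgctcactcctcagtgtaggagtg
PLXNA2: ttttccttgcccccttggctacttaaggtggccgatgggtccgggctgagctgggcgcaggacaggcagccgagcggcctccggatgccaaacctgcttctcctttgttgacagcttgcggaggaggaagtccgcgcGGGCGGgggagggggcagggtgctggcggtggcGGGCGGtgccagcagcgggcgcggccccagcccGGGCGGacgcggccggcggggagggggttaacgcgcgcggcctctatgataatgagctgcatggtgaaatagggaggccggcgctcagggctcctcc
FLRT2: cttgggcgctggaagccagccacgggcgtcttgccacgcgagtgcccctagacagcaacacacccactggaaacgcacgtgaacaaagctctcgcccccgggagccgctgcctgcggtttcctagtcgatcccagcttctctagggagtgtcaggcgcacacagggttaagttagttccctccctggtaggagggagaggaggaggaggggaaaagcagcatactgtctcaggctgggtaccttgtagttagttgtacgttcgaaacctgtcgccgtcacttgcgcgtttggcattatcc
SEMA6D: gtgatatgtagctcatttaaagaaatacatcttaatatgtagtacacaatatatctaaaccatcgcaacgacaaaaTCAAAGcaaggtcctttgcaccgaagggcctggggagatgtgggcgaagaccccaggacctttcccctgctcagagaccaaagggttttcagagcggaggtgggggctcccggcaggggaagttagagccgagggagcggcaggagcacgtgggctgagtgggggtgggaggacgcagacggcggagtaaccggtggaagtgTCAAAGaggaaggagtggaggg
EPHA2: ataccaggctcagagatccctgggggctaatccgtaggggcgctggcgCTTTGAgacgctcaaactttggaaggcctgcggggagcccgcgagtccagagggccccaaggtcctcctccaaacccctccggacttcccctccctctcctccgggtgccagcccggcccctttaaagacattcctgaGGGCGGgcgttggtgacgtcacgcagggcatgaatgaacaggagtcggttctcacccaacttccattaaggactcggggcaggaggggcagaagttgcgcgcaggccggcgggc
The FLRT3 and FLRT2 windows hold neither GGGCGG nor CTTTGA. That of PLXNA2 holds GGGCGG 3 times, that of SEMA6D CTTTGA 2 times and that of EPHA2 each of these motifs once. The FLRT2 and PLXNA2 windows do hold the uncounted form CTTTGT, in FLRT2 on the other strand. RefSeq promoters were matched for 35 of the 42 members. GGGCGG was present in 10 of 14 members that rose at least 2-fold and in 19 of 21 others, against 72.3% of the promoters of listed genes and 44.6% of all promoters. CTTTGA was present in 2 of 14 and 1 of 21 (PLXNA1), against 8.16% and 13.1%. A match of letters is a description and not a binding site.

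No member had an SP5 summit within 5000 bases of an annotated start site in the Wnt3a-treated-control list, against 1.81% of the 10651 listed genes that could be placed in the annotation. That share corresponds to less than 1 of 42 genes, so a count of 0 is near it. Both deposited lists record the same ChIP library of Wnt3a-treated cells in their headers, named for the H9 line, and differ in the control library, so they are called here by their control. The list with the buffer-treated control gave none as well, against 1.56%. Within 50000 bases the first list had a summit for 4 members, against 5.24% of genes, and the second for 1 (PLXNA1), against 4.8%. Of these 5 genes EFNA2 rose at least 2-fold and the others did not.

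The peak nearest to a member that rose lies 19326 bases upstream of EFNA2, at chr19:1266115-1267064 (hg19), with 34 tags, a score of 67.0, a 5.61-fold excess over the control library and an FDR (false discovery rate) of 28.6%. The 100 bases to either side of its summit (chr19:1266446-1266646, forward strand) are shown with GGGCGG and GGGAGG in capitals on either strand, overlapping in places, and beside them the same window of the ROBO1 peak (chr3:78778521-78778721), which lies inside that gene and has neither motif.
EFNA2 peak: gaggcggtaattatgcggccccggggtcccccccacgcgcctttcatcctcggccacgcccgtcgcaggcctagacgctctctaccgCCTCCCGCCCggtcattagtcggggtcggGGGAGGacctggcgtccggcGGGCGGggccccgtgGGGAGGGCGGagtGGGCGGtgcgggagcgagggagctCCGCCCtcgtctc
ROBO1 peak: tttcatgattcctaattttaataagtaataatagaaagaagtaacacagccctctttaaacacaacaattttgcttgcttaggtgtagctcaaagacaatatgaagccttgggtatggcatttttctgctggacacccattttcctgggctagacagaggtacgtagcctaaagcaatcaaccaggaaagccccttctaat
GGGCGG occurs 5 times and GGGAGG 3 times in the EFNA2 window, whose G and C content is 75.1%, against 38.8% in that of ROBO1. Of 539 peaks of this list with sequence, 42.1% hold GGGCGG and 50.8% GGGAGG. The ROBO1 peak has 16 tags and an FDR of 44.2%, the peak 3371 bases beyond the end of PLXNB2 has 28 tags and an FDR of 28.2%, the peak 38883 bases beyond the end of SEMA3F has 42 tags and an FDR of 10.3%, and the PLXNA1 peak inside that gene has 28 tags and an FDR of 71.0%. None of the 5 peaks has an FDR of 5% or less. Of the 10651 placed genes, 193 had a summit within 5000 bases in the Wnt3a-treated-control list, and 27 had one with such an FDR. Most genes near a summit thus missed this bound as well, and the share over all peaks was not computed.

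The mutant table holds 497 genes that the authors took for their change in the first WT series, and 12 of the 42 members are among them. These 12 are EFNA5, EFNB1, EPHA2, EPHA4, EPHB3, FLRT2, FLRT3, NTN1, PLXNA2, SEMA5A, SEMA6D and SLIT2. All 12 rose at least 2-fold at 48 h in that series, as did 271 of the 497 genes. Since the table was chosen on that series, the rise of the 12 there is no separate evidence. The shares of the table given below pool genes that rose with genes that did not, and no share over the risen genes alone was computed. Each value is a share of the highest WT Rep. 2 RPKM of the gene, so levels of different genes cannot be compared. All 12 were highest at 48 h in WT Rep. 2, as were 313 of the 497 genes.

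At 48 h, 10 of the 12 exceeded WT Rep. 2 in both clones, against 44.7% of the table, and 1, EFNA5, was lower in both, against 36%. Both shares include genes that did not rise in the first WT series, whereas all 12 members rose there. The exception in direction was NTN1, which was at 1.13 in dZF1 and 0.86 in dZF2. Both clones were at least 1.5-fold above WT Rep. 2 for FLRT3, PLXNA2, SEMA6D and EPHA4, against 15.5% of the table. The log2 ratio to WT Rep. 2, with 0.05 added to each value, was averaged over the clones, and its median over members was 0.49 at 48 h, against 0.0525 over the table. The definitive endoderm genes SOX17, FOXA2, CXCR4, HHEX and GATA6 were higher in both clones at 48 h as well, at 1.98 to 5.56 times the WT Rep. 2 level, and their part in the values of the guidance genes was not tested. With 1 WT series and clones that each come from 1 cell, the SP5 deletion and other differences between the lines cannot be told apart.

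At 48 h FLRT3 had the largest mean ratio of the clones to WT Rep. 2. It was at 0.17, 0.10, 0.17 and 1.00 in WT Rep. 2, at 0.13, 0.11, 0.17 and 3.04 in dZF1 and at 0.13, 0.12, 0.05 and 2.92 in dZF2 (0, 12, 24 and 48 h). All 3 lines were low until 24 h, and at 48 h both clones were above WT Rep. 2 by a mean log2 ratio of 1.53 ± 0.040 (SD, n = 2 clones). Here and below the SD is the spread between the 2 clones only. It leaves out the unknown error of the 1 WT Rep. 2 library that both ratios share. SEMA6D was at 0.49, 0.38, 0.50 and 1.00 in WT Rep. 2, at 0.58, 0.53, 0.27 and 1.90 in dZF1 and at 0.48, 0.32, 0.48 and 2.43 in dZF2, a mean log2 ratio of 1.07 ± 0.25 (SD, n = 2) at 48 h. SEMA6D was above WT Rep. 2 in both clones at 48 h only, and at 24 h both clones were below it.

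PLXNA2 was at 0.09, 0.06, 0.11 and 1.00 in WT Rep. 2, at 0.05, 0.14, 0.24 and 2.09 in dZF1 and at 0.05, 0.08, 0.62 and 1.94 in dZF2. The clones were above WT Rep. 2 from 12 h on, with a mean log2 ratio of 1.46 ± 0.85 at 24 h and 0.97 ± 0.074 at 48 h (SD, n = 2). EPHA4 was at 0.38, 0.33, 0.48 and 1.00 in WT Rep. 2, at 0.58, 0.44, 0.59 and 1.83 in dZF1 and at 0.41, 0.50, 0.95 and 2.05 in dZF2, a mean log2 ratio of 0.92 ± 0.11 (SD, n = 2) at 48 h. EPHA4 was above WT Rep. 2 in both clones at all 4 times, 0 h included.

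EFNB1 was at 0.36, 0.38, 0.40 and 1.00 in WT Rep. 2, at 0.59, 0.36, 0.46 and 1.71 in dZF1 and at 0.49, 0.45, 0.64 and 1.42 in dZF2. EPHB3 was at 0.20, 0.10, 0.12 and 1.00 in WT Rep. 2, at 0.14, 0.26, 0.19 and 1.77 in dZF1 and at 0.16, 0.14, 0.49 and 1.2 in dZF2. Both clones were above WT Rep. 2 at 48 h for these genes, and for EPHB3 the clones differed from each other, with log2 ratios of 0.79 and 0.25. The mean log2 ratio of EPHB3 was 1.08 at 24 h and 0.52 at 48 h. SEMA5A was at 0.47, 0.46, 0.54 and 1.00 in WT Rep. 2, at 0.75, 0.77, 0.91 and 1.54 in dZF1 and at 0.42, 0.47, 1.04 and 1.26 in dZF2. For SEMA5A dZF1 was the highest line at 0, 12 and 48 h and dZF2 at 24 h, and its mean log2 ratio was 0.79 at 24 h and 0.46 at 48 h.

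EPHA2, FLRT2 and SLIT2 differed more at 24 h than at 48 h, as PLXNA2, EPHB3 and SEMA5A above did by the mean log2 ratio. EPHA2 was at 0.31, 0.37, 0.39 and 1.00 in WT Rep. 2, at 0.44, 0.51, 1.08 and 1.30 in dZF1 and at 0.53, 0.62, 1.70 and 1.27 in dZF2. FLRT2 was at 0.28, 0.22, 0.27 and 1.00 in WT Rep. 2, at 0.22, 0.37, 0.80 and 1.32 in dZF1 and at 0.20, 0.36, 0.82 and 1.44 in dZF2. SLIT2 was at 0.56, 0.45, 0.39 and 1.00 in WT Rep. 2, at 0.57, 0.79, 1.27 and 1.35 in dZF1 and at 0.56, 0.92, 2.21 and 1.27 in dZF2. The mean log2 ratios at 24 h were 1.68 ± 0.45 for EPHA2, 1.43 ± 0.024 for FLRT2 and 1.97 ± 0.55 for SLIT2 (SD, n = 2), and at 48 h they were 0.35, 0.44 and 0.37. In dZF2, EPHA2 and SLIT2 were higher at 24 h than at 48 h, which neither WT series showed. By smaller margins EFNA5 was as well, in dZF1 (0.88 against 0.83) and in dZF2 (0.82 against 0.76).

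EFNA5 and NTN1 did not follow the others. EFNA5 was at 0.80, 0.89, 0.89 and 1.00 in WT Rep. 2, at 0.60, 0.71, 0.88 and 0.83 in dZF1 and at 0.61, 0.57, 0.82 and 0.76 in dZF2, below WT Rep. 2 in both clones at every time. The difference was very small for dZF1 at 24 h (0.88 against 0.89). NTN1 was at 0.44, 0.41, 0.48 and 1.00 in WT Rep. 2, at 0.19, 0.18, 0.36 and 1.13 in dZF1 and at 0.06, 0.16, 0.69 and 0.86 in dZF2. NTN1 was at less than 50% of the WT Rep. 2 level in both clones at 0 and 12 h, with a mean log2 ratio of -1.59 ± 0.80 (SD, n = 2) at 0 h, and no difference of 1 sign remained at 24 or 48 h.

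**Figure D3:**
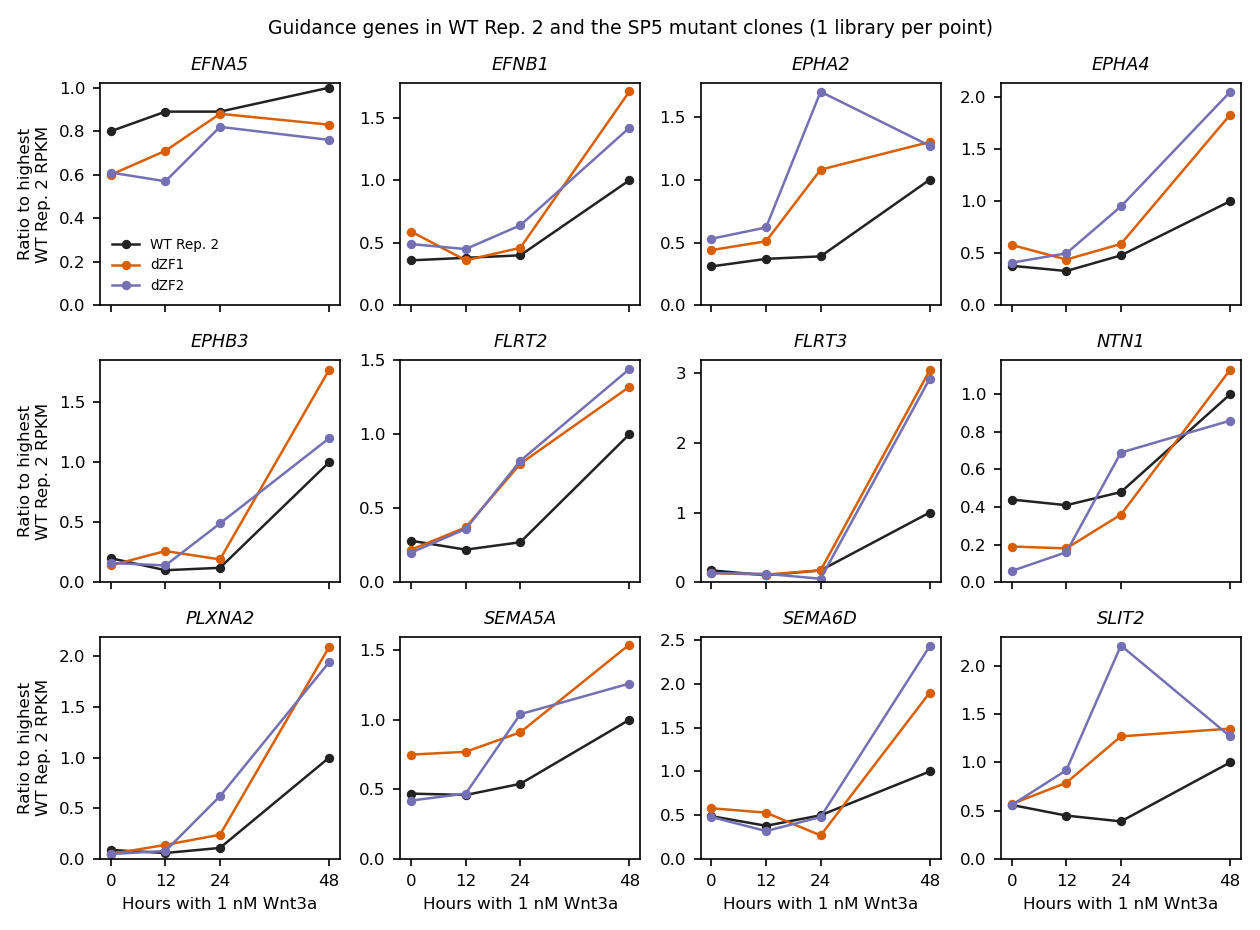
Levels of the 12 guidance genes of the mutant table against hours of Wnt3a, each as a ratio to the gene's highest RPKM in WT Rep. 2, for WT Rep. 2, dZF1 and dZF2 (1 library per point, y axes from 0 and different for each gene). At 48 h both clones lie above WT Rep. 2 in 10 panels and below it in that of EFNA5, and in the panels of EPHA2, FLRT2 and SLIT2 the gap is wider at 24 h than at 48 h.

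At the earlier times 3 members were higher in both clones and 6 lower at 0 h, against 33% and 42.5% of the table; 8 were higher and 2 lower at 12 h, against 36.6% and 43.3%, and 8 higher and 2 lower at 24 h, against 51.1% and 29.2%. At 12 h FLRT2 and SLIT2 were at least 1.5-fold higher in both clones, against 10.1% of the table, and at 24 h EPHA2, FLRT2, PLXNA2, SEMA5A and SLIT2 were at least 1.5-fold higher in both clones, against 23.1% of the table. Some directions counted without a fold threshold rest on small differences between single libraries. Examples are FLRT3 at 12 h (0.11 and 0.12 against 0.10 in WT Rep. 2) and SEMA6D in dZF2 at 24 h (0.48 against 0.50). The median of the mean log2 ratio over members was -0.14, 0.40 and 0.69 at 0, 12 and 24 h, against -0.072, -0.0235 and 0.24 over the table. The counts at 0 h are near the shares of the table, and with dZF1 alone 6 members were higher and 6 lower. Those at 12 and 24 h rest on the WT Rep. 2 libraries with the low SP5 levels described above.

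Within each series the members were also compared with their own 0 h library. At 24 h none of the 12 was at least 2-fold higher in WT Rep. 2, against 7.85% of the table, 4 were in dZF1, against 22.5%, and 8 in dZF2, against 29%. In the first WT series, on which the table was chosen, it was 8 of the 12, against 37.6% of the table. At 48 h the counts were 9 in WT Rep. 2 (36.4% of the table), 10 in dZF1 (47.3%) and 11 in dZF2 (45.9%). In WT Rep. 2 the 3 that fell short were EFNA5, SEMA6D and SLIT2, with log2 changes of 0.30, 0.96 and 0.78. No member was at least 2-fold below its own 0 h level at any time in these lines. For WT Rep. 2, dZF1 and dZF2 the shares of the table were 2.01%, 1.81% and 2.62% at 12 h and 2.41%, 1.81% and 4.23% at 24 h. At 48 h they were 6.44%, 13.9% and 16.3%. The table also holds genes that did not rise in the first WT series, whereas all 12 members did, so the lack of falls is no separate result.

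The level at 24 h was also taken as a percent of the level at 48 h in the same series, without reference to another line. The 0 h level was not subtracted, so this percent mixes the starting level with the rise. In WT Rep. 2, FLRT3 was at 0.17 at both 0 and 24 h, and SEMA6D at 0.49 and 0.50. The median of this percent over the 12 members was 51.8% for the first WT series and 39.5% for WT Rep. 2. For the clones it was 32.0% (dZF1) and 51.6% (dZF2). Over the genes of the whole table the medians were 87.9%, 68.2%, 80.8% and 84.5% in the same order, with WT Rep. 2 the lowest series. The members were below the table in every series, but the groups are not made up alike. All 12 members were highest at 48 h in WT Rep. 2, whereas 313 of the 497 genes of the table were. The table thus pools late risers with genes that were highest earlier, and no median over the risers alone was computed. Whether guidance genes differ from other risers in this share was not tested. In the same order of series, FLRT2 had reached 68.3%, 27.0%, 60.6% and 56.9%. EPHA2 had reached 86.5%, 39.0%, 83.1% and 134%, and SLIT2 80.3%, 39.0%, 94.1% and 174%. For these 3 genes WT Rep. 2 was the lowest of the 4 series and the first WT series lay nearest to dZF1. Their low share in WT Rep. 2 at 24 h was thus not seen in the other WT series. Other members had other orders. EPHB3 (37.9%, 12%, 10.7% and 40.8%) and PLXNA2 (36.3%, 11%, 11.5% and 32.0%) paired WT Rep. 2 with dZF1 and the first WT series with dZF2. For NTN1 dZF1 was lowest (78.5%, 48%, 31.9% and 80.2%), and for SEMA6D WT Rep. 2 was highest (12.3%, 50%, 14.2% and 19.8%). FLRT3 was at 14.7% and 17.0% in the WT series and at 5.59% and 1.71% in the clones. EPHA4, at 48.2%, 48%, 32.2% and 46.3%, was alike in both WT series.

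**Figure D4:**
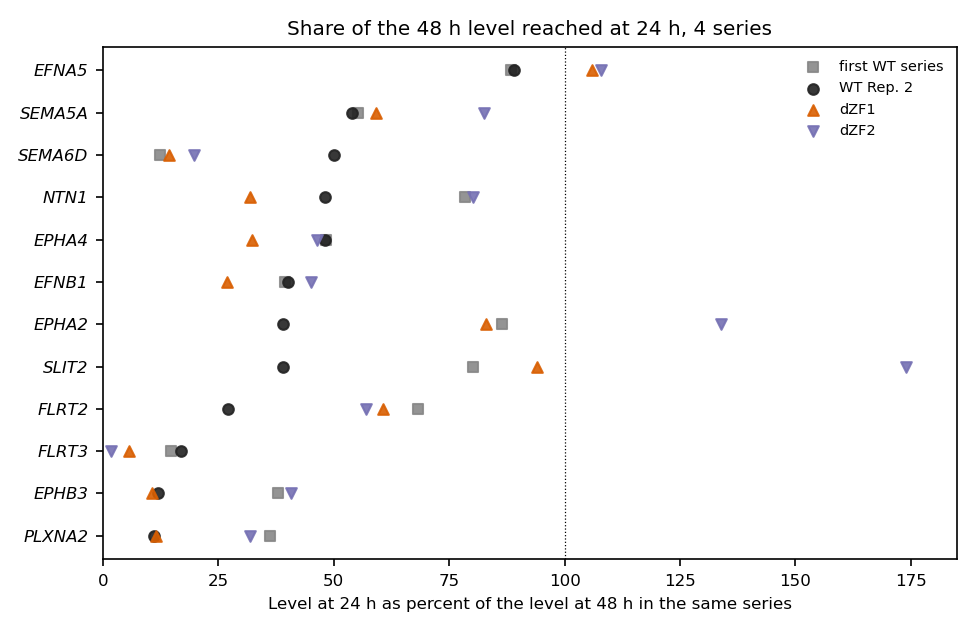
Level at 24 h as a percent of the level at 48 h in the same series for the 12 guidance genes of the mutant table, with a point for each of the 4 series (1 library for each level, no error) and a dotted line at 100%. For FLRT2, EPHA2 and SLIT2 the WT Rep. 2 point lies to the left of the other 3 series, and for SEMA6D it lies to the right of them. For FLRT3 both clones lie to the left of both WT series. The 0 h level is not subtracted, so a point also reflects the starting level of the gene.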

How the data were processed

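RNA-Seq of H1 cells (16 libraries, 1 for each series and time) and SP5 ChIP-Seq peaks were used, grouped by the authors' labels. The authors aligned RNA reads to hg19 with TopHat and computed RPKM with Cuffdiff, and their processing notes name Bowtie 0.12.7 and SAMtools 0.1.12a; the gene annotation is not given in the sources used here. They deposited RPKM to 1 decimal for the first WT series and, for the mutant experiment, a fraction of the highest WT Rep. 2 RPKM for WT Rep. 2 and a ratio to it for the clones. These tables were scaled separately and give no read counts. For peaks called by MACS 1.4.2 against a control library, the authors deposited a count of tags, a score (the negative log10 of the p-value times 10), a fold ratio over the control, an FDR in percent and a summit position.

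Changes were log2 ratios with a pseudocount of 1 RPKM, or of 0.05 in the mutant table, and ties at 2-fold were counted as past it. No test across genes was made because each series and time has 1 library. Positions came from GENCODE 44 mapped to GRCh37, where 10651 listed symbols had a start site, 9619 by the symbol itself and the others by a RefSeq synonym. The members and lists were chosen with earlier results of these data known. Named are all members of the mutant table, all others changed at least 2-fold, those with a near SP5 summit, the 3 highest of each family and the other guidance genes changed 2-fold at 48 h; further names were chosen after their values were seen. Alternatives were other pseudocounts, thresholds, minimum RPKM, centring, each clone left out, other distances and FDR. Python 3.11.15, numpy 2.4.6, pandas 2.3.3 and matplotlib 3.10.9 were used.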

Additional observations from a re-analysis of the deposited data

How the results depend on the processing

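Of 253 values under an alternative for 53 results, 188 stayed within their limit and 65 moved. No member changed the sign of its 48 h change, but with a maximum RPKM of at least 10 the median changed sign for Slits and Robos and for netrins and Unc5 receptors (below), for plexins and neuropilins (from -0.035 to 0.054) and for all members at 24 h (from 0.0062 to -0.0076). With a pseudocount of 5 the members at least 2-fold higher were 0 at 12 h, 2 at 24 h and 7 at 48 h (EFNA2, EFNA5, EPHB3, NTN1, NTN4, SEMA4G, SEMA5A and SLIT2 no longer passed), and of the other guidance genes 0 were higher at 24 h, 1 at 48 h and 1 lower at 48 h. With a pseudocount of 0.1 SEMA4D was 1 member lower at 48 h and 1 other guidance gene was higher at 12 h. With the 1.5-fold threshold the counts were 3 higher at 12 h, 14 higher and 4 lower at 24 h, and 3 lower at 48 h. With a maximum RPKM of at least 10 they were 5 higher at 24 h and 7 at 48 h, with 1 other guidance gene lower at 48 h. With each library set against the one before they were 3 at 24 h and 6 at 48 h, and with an RPKM of at least 4 at 0 h, an alternative chosen after seeing the data, 0 at 12 h, 1 at 24 h and 3 at 48 h. The median 48 h change of the ephrins was 0.40 with a pseudocount of 5 and 0.15 with a maximum of at least 10. That of Slits and Robos was 0.90 with a pseudocount of 0.1, 0.39 with 5 and -0.076 with the maximum, where ROBO1 alone is left. That of netrins and Unc5 receptors was 1.05, 0.29 and -0.30, the last from the Unc5 receptors only. That of the FLRTs was 3.89 with a pseudocount of 0.1 and 2.19 with 5.

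In the mutant table the members higher in both clones at 0 h were 5 after centring on the median of the table. With both clones at least 1.5-fold from WT Rep. 2, chosen after seeing the data, members higher were 0, 2, 5 and 4 at 0, 12, 24 and 48 h, and members lower 1, 1, 0 and 0. The median ratio at 12 h was 0.27 with a pseudocount of 0.2 and 0.28 by the own 0 h library of each series. At 24 h it was 0.58 with a pseudocount of 0.2, 0.83 by own 0 h library and 0.46 after centring, and at 48 h 0.69 by own 0 h library; by own 0 h library 1 member was lower in both at 24 h. Without dZF1 the median was 0.23 at 12 h and 0.90 at 24 h, and 2 members were lower at 48 h; without dZF2 it was 0.38 at 24 h and 0.67 at 48 h, and 6 members were higher at 0 h. Against the own 0 h library with the 1.5-fold threshold, 1 member was lower in WT Rep. 2 at 12 h, 3 higher and 1 lower in dZF1 and 3 higher in dZF2 at 12 h, and 1 lower in each clone at 24 h. With a pseudocount of 0.01, 1 member was higher at 12 h and 1 lower at 24 h in each clone, and with 0.2, 2 were higher at 24 h in dZF1. Within 50000 bases, or inside the gene, 4 members had an SP5 peak, a setting partly chosen after seeing the data.

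No paired analysis was possible because no result comes from a test, with 1 library for each line and time. Without replicates the spread of a value is unknown, and RPKM rounded to 1 decimal is coarse for members under RPKM 1. WT Rep. 2 alone sets every ratio in the mutant table.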
